A study of Mus musculus with 23 samples.

Results

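Dicer was deleted from Schwann cells (SCs) of adult mice, and total RNA of their sciatic nerves (SNs) was sequenced 3 months after tamoxifen (3 mpT). The comparison covers 6 of the 23 libraries of the series, 3 Dicer iKO nerves and 3 controls, and 13045 of the 22880 genes listed were high enough to test. Dicer iKO mice had 1 copy of P0-CreERT2 and Dicer1 flox/flox, control mice had Dicer1 flox/flox and no Cre, and all were C57bl6 by the labels. For 1 comparison, the nerves of 3 Dgcr8 iKO mice (1 copy of P0-CreERT2, Dgcr8 flox/flox) and of their 3 Cre-negative controls were used as well, also at 3 mpT. By the study's methods mutants and controls were given tamoxifen as young adults, the promoter of the Cre is one of myelinating SCs, and both sexes were used. Not every induced mouse developed a nerve phenotype, and the study kept to affected animals, so that these 3 Dicer iKO nerves stand for affected mice. The labels do not say what a replicate is, while the study's methods give 3 mice for each of these genotypes, as many as there are libraries, and p-values measure the spread between these libraries.

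Dicer is the ribonuclease that cuts hairpin precursors into mature microRNAs (miRNAs). Loaded on Argonaute proteins, miRNAs pair with partly complementary sites, mostly in 3′ untranslated regions (UTRs), and lower the stability and translation of mRNAs. A myelinating SC wraps an axon segment and makes large amounts of lipid, sterol and myelin protein. After injury SCs can leave this state, switch on a repair programme that depends on the transcription factor c-Jun, secrete trophic factors and chemokines, and clear myelin together with macrophages. The comparison asks which of these programmes differ in adult nerves whose SCs have lost Dicer, in the absence of an injury.

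Library totals were 7128807 to 7753153 counts in the controls and 5594859 to 7463771 in Dicer iKO. Levels are given as normalized CPM (counts scaled to library size) unless stated otherwise, always for replicates 1, 2 and 3 in that order and with the controls first. A library with 0 counts allows up to 3 counts, or 0.387 to 0.536 CPM before normalization, and this limit, like the counting intervals, covers counting error only. The libraries also differed in ways that the genotypes do not give. The Y-linked gene Ddx3y had 147 to 171 CPM in control 1, control 2 and iKO 1 and 0 counts in control 3, iKO 2 and iKO 3. Cfd, a protease secreted by fat cells, had 56.5 CPM in control 2 and at most 3.24 CPM elsewhere. Fibroblast and perineurial genes were low in control 3, where Dcn, a fibroblast proteoglycan, had 2409 CPM against 7572 and 5604 CPM in controls 1 and 2. Mitochondrial genes took 5.90% ± 0.84 of counts in the controls and 4.26% ± 1.01 in Dicer iKO (SD, n = 3 each, two-sided exact permutation p = 0.2, where 0.1 is the smallest p possible).

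Dicer1 (GRCm38 chr12:104687742-104751952) was only slightly lower in whole nerve. It had 87.8, 87.2 and 90.4 CPM in the controls and 81.2, 82.1 and 81.9 CPM in Dicer iKO. The mutants lay below the controls without overlap, and the difference did not pass the test (log2 fold change -0.11 ± 0.08, adjusted p = 0.357, where ± is the SE, from the quasi-likelihood test of edgeR). Counts are given for 1 Dicer1 transcript and not by exon, so that they do not show whether the floxed part was lost, and SCs are only some of the cells in a nerve. The study itself measured Dicer mRNA and the miRNA let-7f by PCR in nerves at this time after tamoxifen. It reports both as reduced in Dicer iKO.

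A gene was called where it differed by at least 2-fold at an adjusted p of at most 0.05, which held for 9.01% of all genes tested. Of the 16 tested genes that make or use miRNAs 0 were called. Ago4, an Argonaute, passed the adjusted p but not the fold limit, with 9.31, 9.37 and 8.64 CPM in the controls and 13.8, 12.6 and 15.6 CPM in Dicer iKO (log2 fold change 0.62 ± 0.16, adjusted p = 0.031). Drosha, which releases the precursors in the nucleus, had 56.4, 55.3 and 51.7 CPM and 49.5, 38 and 36.8 CPM (adjusted p = 0.0734). Its partner Dgcr8 had 38.4, 39.3 and 43.1 CPM and 47.6, 42.6 and 45.4 CPM (adjusted p = 0.273). Of the RNA-binding proteins that block let-7 maturation, Lin28a had 0 counts in all 6 libraries. Lin28b had 1.43, 1.19 and 1.08 CPM in the controls and 0.798, 0.173 and 0.138 CPM in Dicer iKO. Neither was high enough to test.

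The study lists 10 miRNAs as the most abundant in adult SN, and their seeds (bases 2 to 8) were matched to the UTRs of the tested genes. Mature sequences of 9 were found in RefSeq (GRCm38.p6) and are shown because their seeds, in capitals, are what was searched. miR-10a-5p and miR-10b-5p have the same seed, which leaves 8 distinct ones, and miR-143-3p is named only.
let-7f-5p: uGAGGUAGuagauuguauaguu
miR-30a-5p: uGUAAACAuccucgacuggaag
miR-27b-3p: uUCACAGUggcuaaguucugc
miR-26a-5p: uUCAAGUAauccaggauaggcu
miR-181a-5p: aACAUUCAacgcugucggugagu
miR-22-3p: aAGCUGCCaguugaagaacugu
miR-10a-5p: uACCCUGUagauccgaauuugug
miR-10b-5p: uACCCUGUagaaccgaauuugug
miR-3065-5p: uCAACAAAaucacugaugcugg

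A match was the reverse complement of the seed followed by A, on the transcribed strand of the annotated 3′ UTR of 1 transcript per gene, the one with the highest summed count, and 12654 tested genes had such a UTR. The let-7f match, CTACCTCA, was present in 424 UTRs (3.35%). Genes with it had a median log2 fold change of 0.04 and those without it one of -0.01, and 9.43% against 7.29% were called higher. Their UTRs were also longer, with a median of 2453 bases against 1035. For the other 7 seeds the difference of medians ran from -0.09 for miR-3065-5p to 0.05 for miR-10a-5p. With any of the 8 matches, found in 27.95% of UTRs, the median was -0.02 against 0.00, and 6.73% against 7.61% of genes were called higher. A match is a description of the letters and not a shown target.

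let-7 is known for holding down oncofetal genes, which are active in embryos and tumours. Of 11 tested genes of this kind 4 were called higher and 0 lower, where 7.37% of all tested genes were called higher and 1.64% lower. Their median log2 fold change was 0.48, beside -0.01 over all genes. Hmga2, a chromatin protein of embryonic cells (GRCm38 chr10:120361275-120476469), had 0.859, 0.528 and 0.405 CPM in the controls and 3.32, 5.69 and 7.19 CPM in Dicer iKO (log2 fold change 3.15 ± 0.46, adjusted p = 0.00503). Its relative Hmga1 had 12.9, 9.24 and 7.69 CPM and 21.8, 29.2 and 30.2 CPM (log2 fold change 1.44 ± 0.22, adjusted p = 0.00599). Ccnd1, the cyclin D1 of the G1 phase, had 114, 122 and 114 CPM and 330.0, 503 and 449.9 CPM (log2 fold change 1.88 ± 0.16, adjusted p = 0.0016). Groups did not overlap in these genes, and iKO 1 was the lowest mutant in each. All 4 calls held when any 1 of the 6 libraries was left out. Igf2bp1, a fetal RNA-binding protein also known as a let-7 target, had 3.15, 2.24 and 1.48 CPM and 1.33, 1.21 and 0.553 CPM and was not called (log2 fold change -1.14, adjusted p = 0.125).

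The let-7f match is shown for 2 of these genes because their fold changes differ in sign, with the match in capitals, read on the transcribed strand of GRCm38. It lies at chr10:120364224-120364231 (minus strand) in Hmga2 and, as the first of 3 matches, at chr11:95961778-95961785 (minus strand) in Igf2bp1.
Hmga2: ttcaatttCTACCTCAgcatcagt
Igf2bp1: gaagtaaaCTACCTCAaggtgtga

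The UTRs of Hmga1 and Ccnd1 hold 0 matches of this kind, and Nr6a1, a nuclear receptor with 3, had a log2 fold change of 0.09 and was not called.

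Across all 13045 genes tested, 961 were called higher in Dicer iKO (7.37%) and 214 lower (1.64%), so that 81.8% of called genes were higher. At least 4-fold higher were 390 and at least 4-fold lower 14. In 959 of the 961 and in all 214 the mutants did not overlap the controls. Over all genes tested, the mutants lay entirely above the controls in 22% and entirely below in 19.8%. By the adjusted p alone 1605 genes were higher (12.3%) and 1159 lower (8.88%).

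Which libraries entered mattered most for the lower genes. Their number was 57 without iKO 3, 61 without iKO 2 and 106 without control 2, and 282, 308 and 375 without control 3, control 1 and iKO 1. Higher genes numbered 515 without iKO 3, 562 without iKO 2, 598 without control 2 and 864 to 1093 without the other libraries. In all 6 of these fits 478 higher and 35 lower genes kept their call. With a term for Ddx3y-positive libraries, added after seeing the data, 813 genes were called higher and 174 lower.

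**Figure D1:**
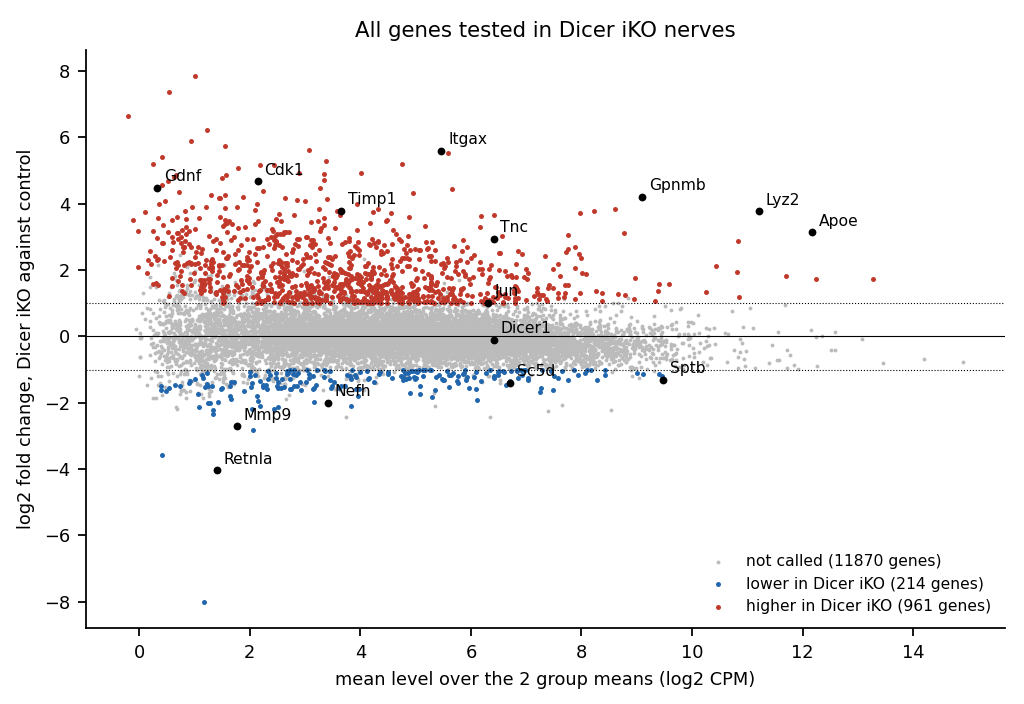
Each point is 1 of the 13045 genes tested, with its mean level over both groups (log2 CPM, horizontal) against the log2 fold change of Dicer iKO over control (vertical), and dotted lines at a 2-fold change. The 961 genes called higher (red) extend to larger folds than the 214 called lower (blue), and Dicer1 sits at -0.11.

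Genes with the largest increases were low or absent in control nerves. Mmp27, a matrix metalloproteinase, had 0 counts in every control and 2.26, 5.87 and 4.01 CPM in Dicer iKO, at least 9.87-fold higher against a floor of 3 counts per library. Ccl8, a monocyte chemokine, had 1 count over the 3 controls and 95 over Dicer iKO, a ratio of 102 with a 95% exact counting interval of 17.8 to 4050. Mcoln2, a lysosomal cation channel, had 2 and 118 counts, a ratio of 63.1 (17.1 to 527). These 3 genes were thus near or under the detection limit in all controls. Mcoln3, of the same channel family, had 0.859, 0 and 0.135 CPM in the controls and 14.2, 16 and 19.2 CPM in Dicer iKO (log2 fold change 5.61 ± 0.57, adjusted p = 0.00214). B3gnt7, a glycosyltransferase, had 1 and 76 counts, a ratio of 81.3 (14.2 to 3250). Htr2b, a serotonin receptor, had 1.15, 0.132 and 0.270 CPM and 12.8, 26.9 and 21.4 CPM (log2 fold change 5.29 ± 0.55, adjusted p = 0.00216). In Mcoln3 and Htr2b control 1 was the highest control. The genes of this paragraph were taken only from those whose groups did not overlap.

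The lowest adjusted p, 0.00109, was reached by 12 genes. One was Myof, a protein of membrane repair, with 34.5, 33.1 and 27 CPM in the controls and 119.5, 131 and 137 CPM in Dicer iKO (log2 fold change 2.04 ± 0.12, adjusted p = 0.00109). Cd93, a receptor of endothelial and myeloid cells, had 53.4, 44.1 and 45.8 CPM and 152, 174 and 171 CPM (log2 fold change 1.80 ± 0.11, adjusted p = 0.00109). Rftn1, a lipid raft protein, had 9.45, 9.11 and 7.96 CPM and 44.1, 55.9 and 63.8 CPM (log2 fold change 2.62 ± 0.17, adjusted p = 0.00109). These genes were picked by their small p, which goes with a small spread within a group beside the distance between the groups.

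**Figure D2:**
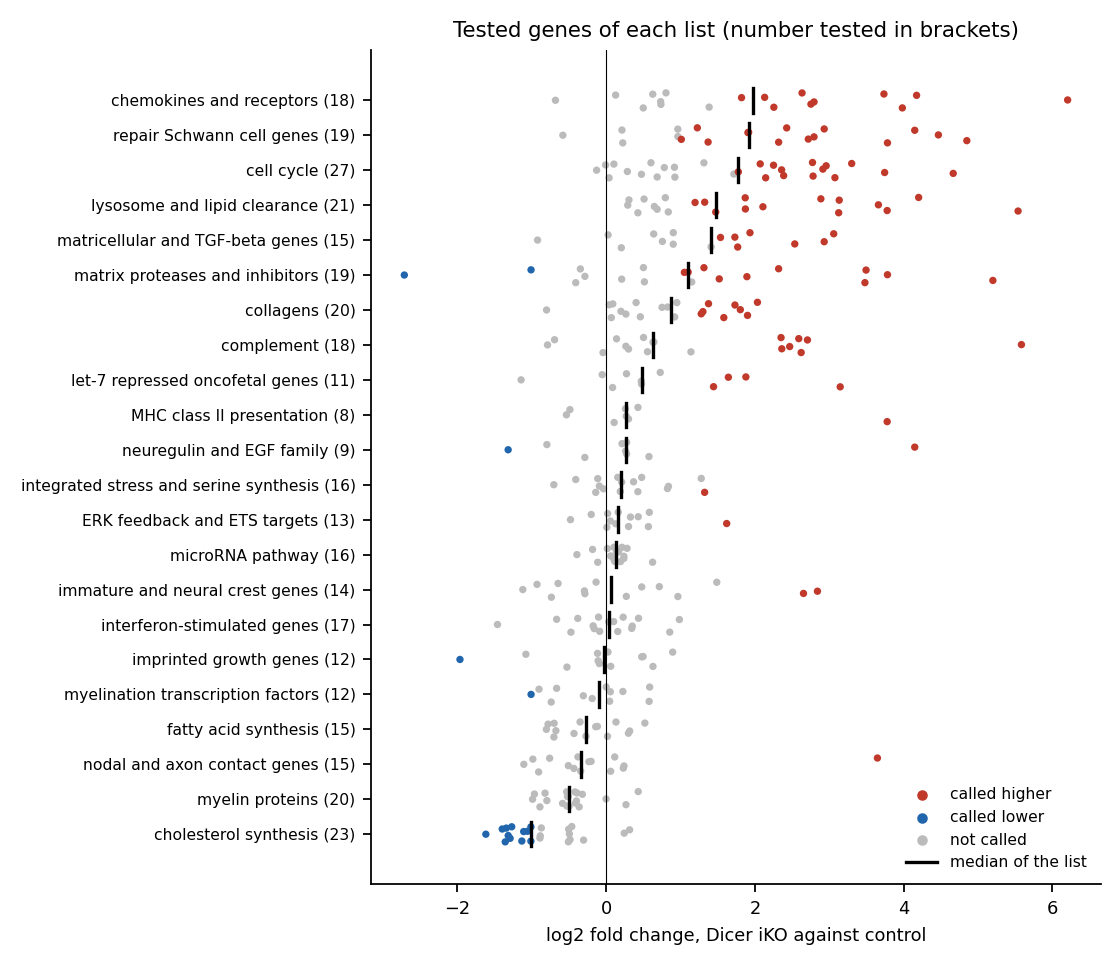
Log2 fold changes (horizontal) of the tested members of 22 gene lists (vertical, number tested in brackets), red where called higher and blue where called lower, with the median of each list as a bar. Medians run from -1.01 for cholesterol synthesis to 1.98 for chemokines and receptors.

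Most repair SC genes rose. Of 19 tested members 14 were called higher and 0 lower, with a median log2 fold change of 1.92, and their summed level was 309.9 to 335 CPM in the controls and 731 to 986 CPM in Dicer iKO. Cells other than SCs are also in the nerve, and macrophage markers rose in the same nerves. The part of such cells in the levels of these genes, here and in the next paragraphs, was not tested. Jun, which encodes c-Jun (GRCm38 chr4:95049034-95052222), had 67, 51.6 and 38.9 CPM in the controls and 102, 102 and 113 CPM in Dicer iKO (log2 fold change 1.01 ± 0.19, adjusted p = 0.0107). It stood just past the fold limit, and its call was lost without control 2, control 3 or iKO 3 (log2 fold changes of 0.83 to 0.995, adjusted p of 0.00575 to 0.0542). Atf3, a transcription factor induced by injury, had 24.3, 17.8 and 24.7 CPM and 38.3, 69.2 and 49.3 CPM (log2 fold change 1.23 ± 0.23, adjusted p = 0.012). Its call was lost without control 2, iKO 2 or iKO 3 (log2 fold changes of 0.99 to 1.28, adjusted p of 0.0377 to 0.0537). Runx2, a transcription factor of bone that injured SCs also express, had 2.29, 2.64 and 3.51 CPM and 7.05, 13.8 and 11.3 CPM (log2 fold change 1.92 ± 0.32, adjusted p = 0.0076), and its call held without any 1 library. Ngfr, the p75 neurotrophin receptor of immature and repair SCs, had 85.2, 73.9 and 34.3 CPM and 155, 176 and 169 CPM (log2 fold change 1.37 ± 0.29, adjusted p = 0.0173). Control 3 was the lowest control for Ngfr, and the call was lost without control 2, iKO 2 or iKO 3 (log2 fold changes of 1.34 to 1.48, adjusted p of 0.0565 to 0.0732).

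Trophic and signalling factors started from low levels. Gdnf, a survival factor for motor neurons (GRCm38 chr15:7810846-7837575), had 0.143, 0.132 and 0 CPM in the controls and 1.46, 3.45 and 2.35 CPM in Dicer iKO. Over each group this was 2 and 48 counts, a ratio of 25.7 (95% exact counting interval 6.73 to 218). Ucn2, a urocortin peptide, had 2 and 65 counts, a ratio of 34.8 (9.24 to 293). Both were at or under the floor in the controls. Shh, a morphogen that SCs switch on after injury, had 4.30, 5.28 and 3.37 CPM and 13.2, 32.6 and 24.5 CPM (log2 fold change 2.43 ± 0.36, adjusted p = 0.00516). Btc (betacellulin), an EGF family ligand, had 2.43, 0.396 and 0.540 CPM and 13.8, 29.5 and 16.5 CPM (log2 fold change 4.15 ± 0.58, adjusted p = 0.00444). Clcf1, a ligand of the CNTF receptor, had 2.29, 1.58 and 2.02 CPM and 6.65, 9.15 and 6.50 CPM (log2 fold change 1.91 ± 0.28, adjusted p = 0.00517). In these 3 genes the lowest mutant was above the highest control, and iKO 2 was the highest mutant. Gfap, an intermediate filament of non-myelinating and repair SCs, had 2.29, 6.20 and 3.24 CPM and 22.9, 22.6 and 32.4 CPM (log2 fold change 2.72 ± 0.34, adjusted p = 0.00333).

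Genes that act on matrix and immune cells rose as well. Timp1, an inhibitor of metalloproteinases, had 2.15, 1.19 and 1.75 CPM in the controls and 19, 29 and 22.6 CPM in Dicer iKO (log2 fold change 3.78 ± 0.27, adjusted p = 0.00109). Ccl2, a chemokine that draws monocytes, had 4.58, 2.90 and 2.16 CPM and 21.7, 23.3 and 22 CPM (log2 fold change 2.79 ± 0.25, adjusted p = 0.00167). Plau, the urokinase plasminogen activator, had 13.7, 9.63 and 9.99 CPM and 43.9, 52.6 and 69.9 CPM (log2 fold change 2.32 ± 0.22, adjusted p = 0.00167). These 3 calls held without any 1 library. Tnc, a matrix glycoprotein of injured tissue, had 6.87, 16 and 36 CPM and 93.9, 206 and 152 CPM (log2 fold change 2.93 ± 0.54, adjusted p = 0.0111). Its lowest value was in control 1 and control 3 was the highest control, and the call was lost without control 2, iKO 2 or iKO 3 (log2 fold changes of 2.65 to 2.93, adjusted p of 0.0501 to 0.0579).

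Some repair genes did not pass the test. Lif, a cytokine of injured nerve, had 7.45, 11.3 and 11.6 CPM in the controls and 6.12, 5.69 and 8.44 CPM in Dicer iKO (log2 fold change -0.58, adjusted p = 0.142). Gap43, a growth cone protein, had 9.45, 6.33 and 3.78 CPM and 4.79, 11.7 and 6.36 CPM (log2 fold change 0.21, adjusted p = 0.751). Sox2, a transcription factor of immature SCs, had 8.31, 9.11 and 10.4 CPM and 18.2, 19 and 17.2 CPM and passed the adjusted p but not the fold limit (log2 fold change 0.96, adjusted p = 0.00669). Bdnf, Artn, Olig1 and Fosl1 were too low to test and did not exceed 0.863 CPM in any library.

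**Figure D3:**
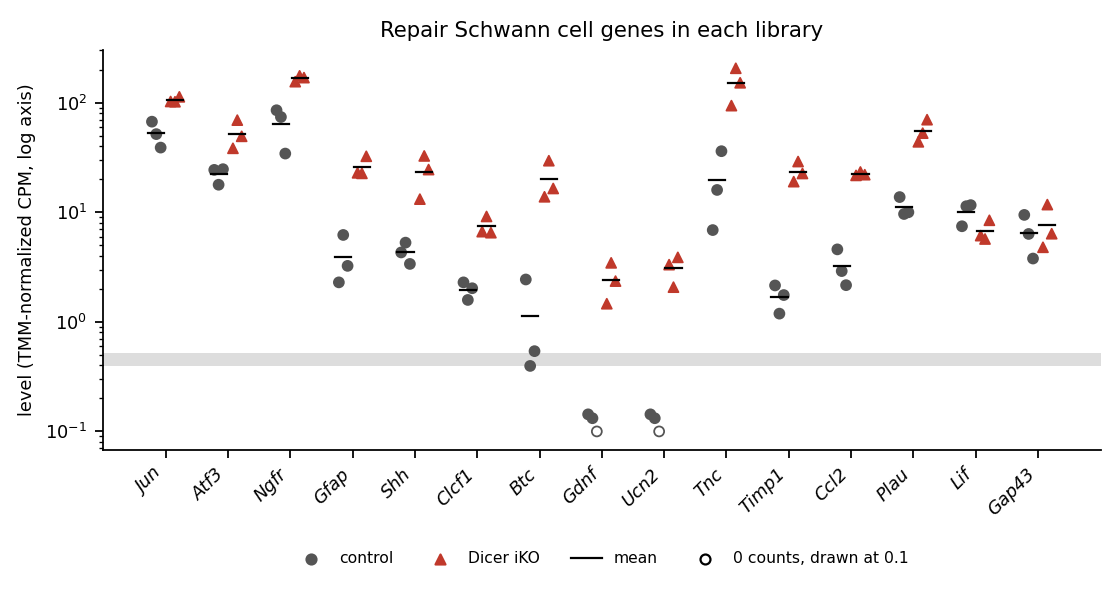
Levels of 15 repair SC genes (TMM-normalized CPM, log axis) in the 3 controls (circles) and 3 Dicer iKO nerves (triangles), with group means as bars and open symbols at 0.1 for 0 counts. Mutants lie above all controls in every gene drawn except Lif and Gap43. Means under 0.1 are not drawn, and the grey band marks 3 counts in a library.

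Of 14 tested genes of immature SCs and the neural crest 2 were called higher and 0 lower. The shares over all tested genes were 7.37% higher and 1.64% lower. The list had a median log2 fold change of 0.07. Lower calls numbered 2 without iKO 1 and 1 without control 1, and the median ran from -0.12 without control 3 to 0.33 without control 1. Id2, an inhibitor of differentiation, had 5.44, 3.83 and 3.37 CPM in the controls and 25.1, 27.8 and 26.7 CPM in Dicer iKO (log2 fold change 2.65 ± 0.20, adjusted p = 0.00111). Ednrb, an endothelin receptor of the neural crest lineage, had 9.02, 10.3 and 9.45 CPM and 54.2, 78.2 and 74.3 CPM (log2 fold change 2.84 ± 0.17, adjusted p = 0.00109). Both calls held without any 1 library. Notch1, a receptor that keeps SCs immature, passed the adjusted p alone (log2 fold change 0.71, adjusted p = 0.00809). Nes, an intermediate filament, did so in the other direction (log2 fold change -0.65, adjusted p = 0.0197). Id1, Id3, Id4, Sox9 and Foxd3 overlapped between the groups.

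The neuregulin and EGF family, through which axons instruct SCs, gave 1 higher and 1 lower call of 9 tested, and 2 lower without iKO 1. The higher one was Btc. Erbb4, a neuregulin receptor, had 31.2, 38.1 and 48.6 CPM in the controls and 22.2, 11.2 and 13.6 CPM in Dicer iKO (log2 fold change -1.32 ± 0.27, adjusted p = 0.015). Its call was lost without control 2, iKO 2 or iKO 3 (log2 fold changes of -1.34 to -1.12, adjusted p of 0.0548 to 0.0808). Erbb3, the neuregulin receptor of SCs, overlapped between the groups, with 172, 236 and 348 CPM and 300.5, 302 and 311 CPM (log2 fold change 0.27, adjusted p = 0.426), as did its partner Erbb2. Of 13 tested feedback and ETS genes of ERK signalling 1 was called higher. This was Dusp5, a phosphatase of ERK, with 0.716, 0.528 and 0.540 CPM and 1.73, 2.07 and 1.80 CPM (log2 fold change 1.62 ± 0.39, adjusted p = 0.026). It lost the call without control 1, control 2, control 3, iKO 2 or iKO 3 (log2 fold changes of 1.54 to 1.76, adjusted p of 0.0528 to 0.111). Spry1, Spry2, Spry4 and Etv5, which ERK activity induces, overlapped between the groups.

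Mitotic genes rose from low levels. Of 27 tested cell cycle genes 14 were called higher and 0 lower, with a median log2 fold change of 1.78 and 11 to 15 calls with 1 library left out. Top2a, the topoisomerase of dividing cells, had 2.72, 3.04 and 2.02 CPM in the controls and 27.9, 41.9 and 35.3 CPM in Dicer iKO (log2 fold change 3.74 ± 0.23, adjusted p = 0.00109). Cdk1, the mitotic kinase, had 0.430, 0.264 and 0.270 CPM and 7.05, 9.32 and 9.27 CPM (log2 fold change 4.67 ± 0.35, adjusted p = 0.00111). Mki67, which encodes the proliferation marker Ki-67, had 6.44, 8.84 and 2.83 CPM and 34, 46.1 and 44.4 CPM (log2 fold change 2.77 ± 0.34, adjusted p = 0.00304). In all 3 the mutants were several times above the highest control. Kif11, a spindle motor, had 1.43, 1.06 and 1.35 CPM and 8.38, 8.28 and 9.96 CPM (log2 fold change 2.78 ± 0.26, adjusted p = 0.00167). Pcna, the sliding clamp of replication, had 61, 66.6 and 61.4 CPM and 62, 71.1 and 70.1 CPM (log2 fold change 0.10, adjusted p = 0.487). Of the replicative helicase genes Mcm2 to Mcm7 0 of 6 were called, and Mcm3 passed the adjusted p alone (log2 fold change 0.92, adjusted p = 0.0113). Requiring at least 10 counts in every library left 4 calls, as genes with fewer in any library were then not tested. Cells of any type that divide express these genes, macrophage markers rose in the same nerves, and their part in these values was not tested.

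Myelin protein genes gave 0 calls with all 6 libraries. The 20 tested had a median log2 fold change of -0.51, and 2 passed the adjusted p alone, both lower. Lower calls numbered 3 without control 1, 1 without control 3 and 1 without iKO 1, and the median ran from -0.63 without control 1 to -0.27 without control 3. Their summed level was 37210 to 61900 CPM in the controls and 29380 to 37190 CPM in Dicer iKO. Prx, the scaffold protein periaxin, had 4824, 6112 and 8089.8 CPM in the controls and 3866, 3113 and 3282 CPM in Dicer iKO (log2 fold change -0.89 ± 0.23, adjusted p = 0.0298). Drp2, which binds periaxin at the SC membrane, had 3946, 4669 and 6737 CPM and 3411, 2229.6 and 2088 CPM (log2 fold change -0.99 ± 0.27, adjusted p = 0.0392). Mbp, which compacts the cytoplasmic face of myelin, had 11606, 13743 and 17315 CPM and 9754, 7382 and 7405 CPM (log2 fold change -0.80, adjusted p = 0.0511). In these 3 genes control 1 was the lowest control and iKO 1 the highest mutant. Pmp2, a lipid-binding myelin protein, had 528, 688 and 925 CPM and 941, 992 and 953 CPM (log2 fold change 0.43, adjusted p = 0.159).

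The markers of SCs as a whole summed to 23820 to 39630 CPM in the controls and 19670 to 24450 CPM in Dicer iKO, which overlapped, and 0 of 10 were called, with 1 lower call without control 1. S100b, a calcium-binding protein of SCs, passed the adjusted p alone, with 924, 974 and 1050.0 CPM in the controls and 685, 594 and 565 CPM in Dicer iKO (log2 fold change -0.68 ± 0.12, adjusted p = 0.0108). Of 8 markers of non-myelinating SCs 2, Gfap and Ngfr, were called higher, with summed levels of 1057 to 1788 CPM in the controls and 1223 to 1548 CPM in Dicer iKO. Higher calls numbered 1 without control 2 or iKO 2 and 4 without control 3, and 1 was lower without control 1 or iKO 1. In bulk nerve, fewer cells of a type and less RNA per cell cannot be told apart.

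Of 12 tested transcription factors of myelination 1 was called lower and 0 higher, and 2 lower without control 1. Srebf2, which drives sterol synthesis genes, had 145, 139 and 175 CPM in the controls and 101, 63.3 and 62.9 CPM in Dicer iKO (log2 fold change -1.01 ± 0.20, adjusted p = 0.0137). Its call was lost without control 3, iKO 2 or iKO 3 (log2 fold changes of -0.90 to -0.88, adjusted p of 0.0174 to 0.0711). Egr2 (Krox20), the main driver of myelin genes, had 137, 234 and 287 CPM and 117, 89.6 and 145 CPM (log2 fold change -0.90, adjusted p = 0.0555). Its co-regulator Nab1 had 237, 219 and 214 CPM and 156, 133 and 132 CPM and passed the adjusted p alone (log2 fold change -0.67, adjusted p = 0.00656). Sox10, the factor of SC identity, had 173, 244 and 316 CPM and 196, 195 and 202 CPM, with the mutants inside the range of the controls (log2 fold change -0.31, adjusted p = 0.308).

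Many cholesterol synthesis genes fell. Of 23 tested 12 were called lower and 0 higher, with a median log2 fold change of -1.01, and their summed level was 2388 to 3334 CPM in the controls and 1091 to 1967 CPM in Dicer iKO. Sc5d, a sterol desaturase, had 120.0, 165 and 171 CPM in the controls and 79.5, 50.04 and 43.6 CPM in Dicer iKO (log2 fold change -1.40 ± 0.24, adjusted p = 0.00871). Insig1, which retains the SREBP complex in the endoplasmic reticulum, had 149, 208 and 195 CPM and 106, 60.1 and 62.8 CPM (log2 fold change -1.27 ± 0.24, adjusted p = 0.0112). Groups did not overlap in either gene, with control 1 the lowest control and iKO 1 the highest mutant. Hmgcs1, at the entry of the pathway, had 818, 981 and 984 CPM and 604, 367 and 297 CPM (log2 fold change -1.13 ± 0.25, adjusted p = 0.02). Fdft1, the squalene synthase, had 76.6, 118 and 119.9 CPM and 61.7, 33.3 and 27.5 CPM (log2 fold change -1.36 ± 0.31, adjusted p = 0.0216). Ebp and Dhcr7, enzymes late in the pathway, had log2 fold changes of 0.32 and 0.24 and were not called.

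In 19 of the 23 genes iKO 1 was the highest mutant, in all 12 of those called, and in 21 control 1 was the lowest control. The number of calls rested on single libraries. It was 1 without iKO 3, 2 without iKO 2, 3 without control 2, 9 without control 3 and 15 without control 1 or without iKO 1, while the median stayed between -1.27 and -0.84. Of 15 tested fatty acid synthesis genes 0 were called, with a median of -0.27. Acss2, an acetyl-CoA synthetase, passed the adjusted p alone, with 39.2, 48 and 52 CPM in the controls and 29.2, 27.3 and 23.2 CPM in Dicer iKO (log2 fold change -0.80, adjusted p = 0.0102). Fasn, the fatty acid synthase, overlapped between the groups (log2 fold change 0.02).

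**Figure D4:**
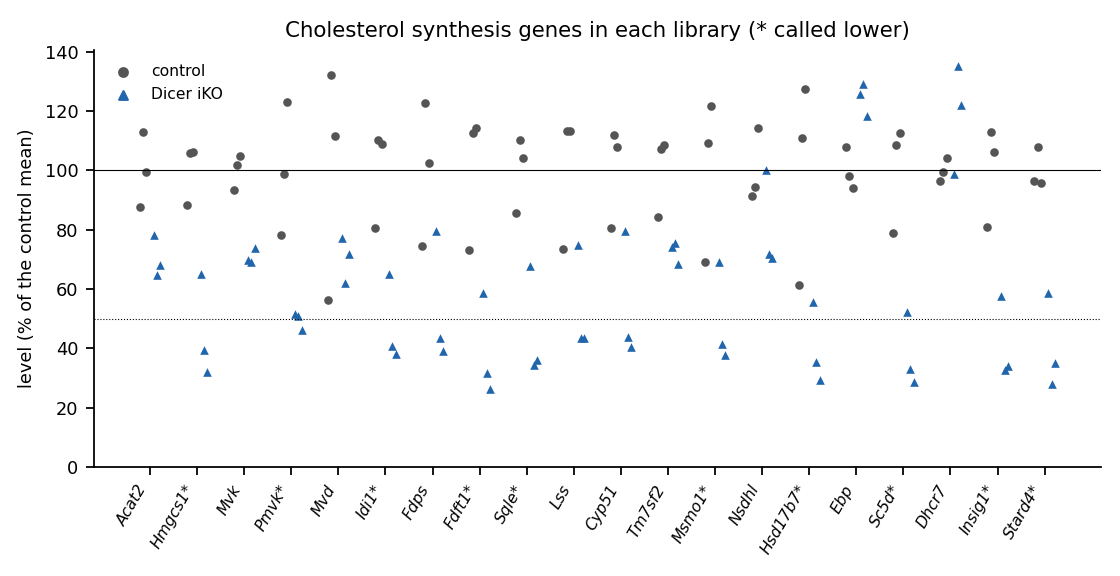
Levels of 20 cholesterol synthesis genes as a percentage of each gene's control mean (vertical), in 3 controls (circles) and 3 Dicer iKO nerves (triangles), with stars at the 10 genes called lower among them and a dotted line at 50%. In all 10 the mutants lie below the controls, with iKO 1 above iKO 2 and iKO 3.

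Macrophage markers rose. The 17 markers summed to 516 to 1618 CPM in the controls and 5217 to 9302 CPM in Dicer iKO, and 12 of 17 tested were called higher and 0 lower, with a median log2 fold change of 2.35. Lyz2, a myeloid lysozyme (GRCm38 chr10:117277331-117282321), had 549, 278 and 143 CPM in the controls and 2936, 4683 and 5569 CPM in Dicer iKO (log2 fold change 3.77 ± 0.51, adjusted p = 0.00412). Cd68, a lysosomal glycoprotein of macrophages, had 13.9, 11.5 and 7.29 CPM and 100.4, 131 and 173 CPM (log2 fold change 3.63 ± 0.28, adjusted p = 0.00113). Adgre1, which encodes F4/80, had 56.7, 33.9 and 18.6 CPM and 159.8, 225 and 230.5 CPM (log2 fold change 2.49 ± 0.37, adjusted p = 0.00514). In all 3 genes control 1 was the highest control, control 3 the lowest, and iKO 1 the lowest mutant. Ms4a7, Mpeg1 and Itgam, also myeloid, had log2 fold changes of 4.44, 3.85 and 2.59, and their calls held without any 1 library. Aif1, Cx3cr1 and Fcgr1 had log2 fold changes of 2.23, 2.25 and 1.84, and each lost its call without at least 1 library, without control 2, iKO 2 or iKO 3 (log2 fold changes of 1.73 to 2.32, adjusted p of 0.0506 to 0.113). Without control 2 the list gave 8 higher calls, and without control 3 it gave 1 lower call. Mrc1, a receptor of resident macrophages, had 178, 119 and 63.2 CPM and 158, 147 and 150.1 CPM (log2 fold change 0.34, adjusted p = 0.474). Cd163, a scavenger receptor of such cells, had 109, 128 and 67.9 CPM and 71.7, 38.5 and 57 CPM (log2 fold change -0.86, adjusted p = 0.064).

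Lysosome and lipid clearance genes gave 13 calls higher of 21 tested and 0 lower, with a median of 1.47 and a summed level of 3227 to 4523 CPM in the controls and 12870 to 23640 CPM in Dicer iKO. Gpnmb, a glycoprotein of lipid-laden phagocytes (GRCm38 chr6:49036546-49070929), had 66, 53.7 and 49.9 CPM in the controls and 574, 1066 and 1481 CPM in Dicer iKO (log2 fold change 4.20 ± 0.35, adjusted p = 0.00152). Apoe, a lipid carrier, had 1273, 921 and 646 CPM and 5143, 9192 and 10584 CPM (log2 fold change 3.13 ± 0.36, adjusted p = 0.00273). Ctsd, a lysosomal protease, had 465, 436 and 395 CPM and 2115, 3403 and 4063 CPM (log2 fold change 2.89 ± 0.25, adjusted p = 0.0016). In these genes the mutants ranked iKO 3, iKO 2, iKO 1 from high to low. Atp6v0d2, a proton pump subunit, had 3.44, 1.45 and 1.22 CPM and 65.5, 97.8 and 119.5 CPM (log2 fold change 5.54 ± 0.38, adjusted p = 0.00109). Trem2, a lipid-sensing receptor, had 22.3, 9.50 and 6.07 CPM and 107, 176 and 194 CPM (log2 fold change 3.66 ± 0.46, adjusted p = 0.00331). Abca1, a cholesterol exporter, had 112, 88.4 and 68.4 CPM and 403, 923 and 1025 CPM (log2 fold change 3.13 ± 0.37, adjusted p = 0.00278). Axl and Mertk, receptors for the uptake of dead cells and myelin, had log2 fold changes of 0.31 and 0.51 and were not called. Macrophages express many genes of this list, their markers moved with it, and their part in these values was not tested.

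Complement genes gave 7 calls higher of 18 tested and 0 lower, and 1 lower without control 3. The calls were the C1q chains C1qa, C1qb and C1qc and the receptor genes C3ar1, Itgam, Itgax and Itgb2. Itgax, which encodes CD11c, had 4.01, 0.924 and 0.540 CPM in the controls and 44.8, 88.5 and 126 CPM in Dicer iKO (log2 fold change 5.58 ± 0.63, adjusted p = 0.00271). C1qb had 96.1, 59 and 25.9 CPM and 260.4, 376 and 477 CPM (log2 fold change 2.62 ± 0.45, adjusted p = 0.0083). C1qa had 126, 78.7 and 44.5 CPM and 249, 441 and 583 CPM (log2 fold change 2.35 ± 0.42, adjusted p = 0.0101) and lost its call without control 2 (log2 fold change 2.31, adjusted p = 0.0525). C3, the central component, overlapped between the groups, with 185, 269 and 178 CPM and 235, 271 and 273 CPM (log2 fold change 0.30, adjusted p = 0.246). The 4 genes C1qa, C1qb, C1qc and Itgam also stand on the macrophage list. Of 8 tested genes of MHC class II presentation 1 was called, the protease gene Ctss, with 71, 32.6 and 18.4 CPM and 417, 610.0 and 644 CPM (log2 fold change 3.78 ± 0.47, adjusted p = 0.00332). Cd74, the invariant chain, overlapped between the groups, with 357, 238 and 124 CPM and 165, 351 and 345 CPM.

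Of 18 tested chemokines and receptors 10 were called higher and 0 lower, and 6 without iKO 3. Cxcl10, an interferon-inducible chemokine, had 0.573, 0.792 and 0.540 CPM in the controls and 12.9, 14 and 8.58 CPM in Dicer iKO (log2 fold change 4.17 ± 0.33, adjusted p = 0.0013). Cxcl14, which draws myeloid cells, had 2.15, 2.64 and 0.675 CPM and 23.7, 28.3 and 35.1 CPM (log2 fold change 3.98 ± 0.37, adjusted p = 0.00167). Cxcr4, a chemokine receptor, had 10.5, 8.58 and 3.91 CPM and 38, 53.8 and 50.6 CPM (log2 fold change 2.63 ± 0.31, adjusted p = 0.00288). These 3 calls held without any 1 library. Cxcl12, the ligand of Cxcr4, fell by less than the fold limit, with 111, 82.9 and 80.3 CPM and 50.8, 62.8 and 57.4 CPM (log2 fold change -0.68 ± 0.15, adjusted p = 0.0196). Ccl11, an eosinophil chemokine, had 154, 125 and 64.8 CPM and 160.5, 193 and 178 CPM (log2 fold change 0.63, adjusted p = 0.148). Macrophages express some genes of this list, their markers moved with it, and their part in these values was not tested. Interferon-stimulated genes gave 0 calls of 17 tested, with a median of 0.03, and 2 were higher by the adjusted p alone. Without iKO 1 there were 2 higher calls and without control 2 there was 1 lower call, and the median ran from -0.20 without iKO 2 to 0.30 without control 3.

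Other leukocyte markers were sparse. Of 12 T and NK cell markers only Cd4, which myeloid cells can also express, was high enough to test, with 1.58, 0.264 and 0.135 CPM in the controls and 11, 22.1 and 25.7 CPM in Dicer iKO (log2 fold change 4.89 ± 0.63, adjusted p = 0.00369). Cd3d, Cd3e and Cd3g, the defining T cell genes, did not exceed 0.690 CPM in any library. Of 11 neutrophil markers 2 were tested, and Csf3r, a cytokine receptor, was called higher, with 6.01, 1.85 and 1.75 CPM and 18.3, 28.5 and 27.3 CPM (log2 fold change 2.95 ± 0.44, adjusted p = 0.00549). S100a8, S100a9 and Ly6g did not exceed 0.518 CPM. Of 7 B cell and 8 adipocyte markers 1 each was tested, and 0 were called. Without iKO 1 there was 1 higher B cell call and 1 lower neutrophil call, without control 1 there were 2 lower adipocyte calls and without control 2 there was 1 higher. Mast cell markers summed to 47.9 to 224 CPM in the controls and 263 to 366 CPM in Dicer iKO, with 0 of 8 called 5 called without control 1 and 1 without control 3.

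Vessel, sheath and muscle markers gave 0 or 1 call per list, all of them lower, where 1.64% of all tested genes were called lower. Endothelial genes summed to 357 to 400.4 CPM in the controls and 254 to 295 CPM in Dicer iKO, with 0 of 10 called and 1 lower call without control 3. Pericyte and smooth muscle genes gave 1 lower call of 9, and 3 without iKO 1 or 2 without control 1. This was Kcnj8, a potassium channel subunit, with 9.16, 9.77 and 9.45 CPM in the controls and 5.58, 2.76 and 3.04 CPM in Dicer iKO (log2 fold change -1.30 ± 0.29, adjusted p = 0.0198), and it was lost without control 2, iKO 2 or iKO 3 (log2 fold changes of -1.28 to -1.11, adjusted p of 0.0746 to 0.0912). Perineurial genes gave 1 lower call of 7, and 5 without control 3. Itgb4, a laminin receptor subunit of perineurial cells and SCs, had 851, 689.5 and 565 CPM and 310.3, 339.6 and 324 CPM (log2 fold change -1.11 ± 0.16, adjusted p = 0.00482) and missed the fold limit without control 1 (log2 fold change -0.95, adjusted p = 0.00381). Of 2 tested muscle genes Tnnt3, a troponin, was called lower, with 5.44, 2.64 and 2.29 CPM and 0.798, 0.863 and 0.692 CPM (log2 fold change -2.12 ± 0.47, adjusted p = 0.0198), and lost the call without control 2, iKO 2 or iKO 3 (log2 fold changes of -2.28 to -2.02, adjusted p of 0.0532 to 0.0902).

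**Figure D5:**
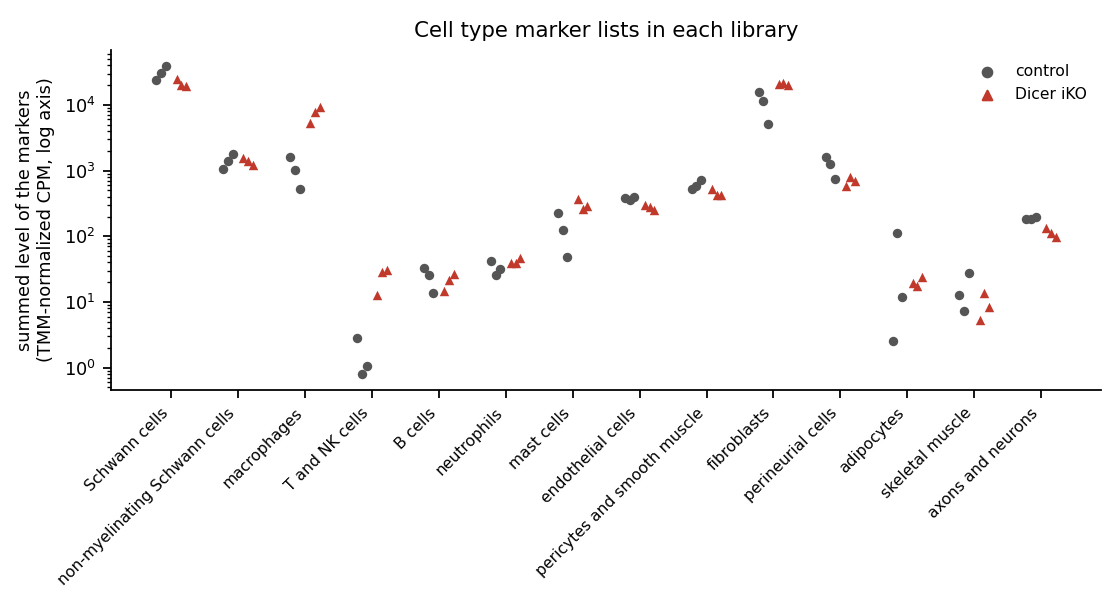
Summed levels (TMM-normalized CPM, log axis) of the markers of 14 cell types in each of the 3 controls (circles) and 3 Dicer iKO nerves (triangles). Macrophage, T and NK, mast cell and fibroblast sums are higher in all 3 mutants than in all 3 controls (the fibroblast sum through Col1a1, Col3a1 and Lum), axon, endothelial and pericyte sums are lower, and the other 7 overlap.

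Matrix genes rose in part. Of 20 tested collagens 8 were called higher and 0 lower, with a median of 0.87 and a summed level of 7536 to 13670 CPM in the controls and 23820 to 26160 CPM in Dicer iKO. Col5a2, a fibrillar collagen, had 378, 357 and 277 CPM in the controls and 887, 1128 and 1013 CPM in Dicer iKO (log2 fold change 1.58 ± 0.16, adjusted p = 0.00214). Its partner Col5a1 had 408, 376 and 329 CPM and 833, 997 and 1057 CPM (log2 fold change 1.38 ± 0.14, adjusted p = 0.00214). Col28a1, a collagen of peripheral nerve, had 84.3, 115 and 126 CPM and 319, 459 and 437 CPM (log2 fold change 1.90 ± 0.20, adjusted p = 0.00214). These 3 calls held without any 1 library. Col1a1, the main fibrillar collagen, had 2111, 1616 and 737 CPM and 5162, 4824 and 5598 CPM (log2 fold change 1.80 ± 0.35, adjusted p = 0.0131). Col3a1, its companion in soft tissue, had 3411, 2547 and 772 CPM and 7177, 8037 and 7133 CPM (log2 fold change 1.73 ± 0.47, adjusted p = 0.0373). In both, control 3 was the lowest control. Col1a1 lost its call without control 2, iKO 2 or iKO 3 (log2 fold changes of 1.76 to 1.87, adjusted p of 0.0506 to 0.0602), and Col3a1 without control 2, iKO 1, iKO 2 or iKO 3 (log2 fold changes of 1.69 to 1.83, adjusted p of 0.0662 to 0.115). The list gave 4 calls without iKO 3 and 5 without iKO 2 or without control 2. The basement membrane chains Col4a1 and Col4a2 overlapped between the groups.

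Fibroblast markers share Col1a1 and Col3a1 with the collagens and summed to 5149 to 15460 CPM in the controls and 19810 to 21210 CPM in Dicer iKO. The 8 markers that are not collagens summed to 3639 to 9933 CPM in the controls and 7083 to 8676 CPM in Dicer iKO, and the 7 not called to 3280.0 to 8927 and 5414 to 7060.0 CPM, which overlapped. Of 10 tested 3 were called higher, Col1a1, Col3a1 and the proteoglycan Lum, and 0 were called without control 2, iKO 2 or iKO 3 and 2 without iKO 1. Pdgfra, a receptor that marks fibroblasts, had 611, 460.0 and 271 CPM in the controls and 405, 318 and 305 CPM in Dicer iKO (log2 fold change -0.38, adjusted p = 0.351). Dcn had 7572, 5604 and 2409 CPM and 5979, 5356 and 4516 CPM (log2 fold change 0.02, adjusted p = 0.968).

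Of 15 tested matricellular and TGF-beta genes 7 were called higher and 0 lower, and 4 without control 2, iKO 2 or iKO 3. Thbs2, a thrombospondin, had 79, 65.3 and 41.6 CPM in the controls and 332, 371 and 375 CPM in Dicer iKO (log2 fold change 2.54 ± 0.22, adjusted p = 0.00161). Fn1, fibronectin, had 936, 866 and 443 CPM and 2471, 2894 and 3212 CPM (log2 fold change 1.93 ± 0.28, adjusted p = 0.00516). Tgfb1, a cytokine that drives matrix synthesis, had 9.59, 5.67 and 5.13 CPM and 21.3, 21.2 and 26.8 CPM (log2 fold change 1.77 ± 0.25, adjusted p = 0.00485). In all 3 control 3 was the lowest control and the groups did not overlap. Tgfbr1, its receptor, had 66.9, 64.9 and 48.3 CPM and 150.0, 217 and 231 CPM (log2 fold change 1.73 ± 0.20, adjusted p = 0.00271). Tgfb3, another ligand, fell by less than the fold limit, with 70.9, 75.2 and 76.9 CPM and 43.7, 43.1 and 30.9 CPM (log2 fold change -0.92 ± 0.15, adjusted p = 0.00646).

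Matrix proteases and their inhibitors gave 10 calls higher and 2 lower of 19 tested. Adam8, a membrane protease of leukocytes, had 2.0, 0.924 and 1.35 CPM in the controls and 34.7, 53.3 and 69.9 CPM in Dicer iKO (log2 fold change 5.20 ± 0.36, adjusted p = 0.00109). Mmp12, the macrophage elastase, had 4.30, 3.43 and 3.24 CPM and 27.1, 41.6 and 55.2 CPM (log2 fold change 3.49 ± 0.30, adjusted p = 0.00152). Plaur, the urokinase receptor, had 0.859, 1.06 and 0.945 CPM and 7.31, 11.4 and 13.8 CPM (log2 fold change 3.48 ± 0.34, adjusted p = 0.00191). These rose together with Plau. Mmp9, a gelatinase, was called lower, with 8.31, 7.26 and 2.16 CPM and 0.665, 1.21 and 0.830 CPM (log2 fold change -2.71 ± 0.58, adjusted p = 0.0173), and lost the call without control 2, iKO 2 or iKO 3 (log2 fold changes of -2.94 to -2.54, adjusted p of 0.0621 to 0.0843). Adamts5, an aggrecanase, was called lower, with 136, 168 and 205 CPM and 90.8, 78.7 and 82.9 CPM (log2 fold change -1.01 ± 0.16, adjusted p = 0.00593), and missed the fold limit without control 3, iKO 2 or iKO 3 (log2 fold changes of -0.99 to -0.85, adjusted p of 0.00355 to 0.0416). Without iKO 2 or iKO 3 there were thus 0 lower calls in this list.

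Axonal and neuronal transcripts fell in part. Of 8 tested 4 were called lower and 1 higher, with a median of -1.42 and summed levels of 180.3 to 199 CPM in the controls and 96.3 to 134 CPM in Dicer iKO. Nefh, the heavy neurofilament, had 17.2, 18.6 and 15.5 CPM in the controls and 7.18, 2.07 and 3.32 CPM in Dicer iKO (log2 fold change -1.996 ± 0.38, adjusted p = 0.0116). Its call was lost without control 2 or iKO 3 (log2 fold changes of -1.94 to -1.83, adjusted p of 0.052 to 0.068). Prph, the filament peripherin, had 19, 16.4 and 19.98 CPM and 9.17, 4.14 and 5.12 CPM (log2 fold change -1.57 ± 0.28, adjusted p = 0.0102), lost without iKO 3 (log2 fold change -1.44, adjusted p = 0.0597). Stmn2, a tubulin regulator of growing axons, had 19.8, 14.6 and 15.4 CPM and 6.65, 5.52 and 5.53 CPM (log2 fold change -1.48 ± 0.19, adjusted p = 0.00372), and this call held without any 1 library. Nefm, the medium neurofilament, had 7.73, 5.28 and 6.75 CPM and 3.99, 2.24 and 1.38 CPM (log2 fold change -1.36 ± 0.39, adjusted p = 0.0435), lost without control 1, control 2, control 3, iKO 2 or iKO 3 (log2 fold changes of -1.50 to -1.04, adjusted p of 0.0636 to 0.146). For Nefh, Prph and Nefm iKO 1 was the mutant nearest to the controls. The list gave 1 lower call without iKO 3, 2 without control 2 and 6 without iKO 1. Tubb3, a tubulin that growing neurons and some other cells use, rose, with 8.31, 8.84 and 11.6 CPM and 27.8, 45.7 and 30.02 CPM (log2 fold change 1.84 ± 0.23, adjusted p = 0.00346).

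The 35 lower genes that kept their call without any 1 library spanned several functions, and the 6 described here were picked after their values were seen. Ndrg2, a glial protein of the hydrolase fold, had 373, 404 and 238 CPM in the controls and 159, 140.3 and 152 CPM in Dicer iKO (log2 fold change -1.17 ± 0.19, adjusted p = 0.00754). Gpm6a, a membrane proteolipid, had 216, 257 and 286 CPM and 124, 113 and 96.2 CPM (log2 fold change -1.19 ± 0.14, adjusted p = 0.00298). Kif5c, a kinesin heavy chain, had 204, 222 and 273 CPM and 104, 56.8 and 57.1 CPM (log2 fold change -1.68 ± 0.25, adjusted p = 0.00564). Kif5a, another one, had its controls in the same order, with control 3 the highest and control 1 the lowest of them (58.6, 79.2 and 94.5 CPM and 33.4, 30.2 and 28.4 CPM, log2 fold change -1.34 ± 0.18, adjusted p = 0.00397). Prkar2b, a regulatory subunit of protein kinase A, had 79.6, 140.4 and 108 CPM and 36.8, 28 and 21.4 CPM (log2 fold change -1.92 ± 0.26, adjusted p = 0.00395). Nrn1, a membrane-anchored neurotrophic protein, had 109, 125 and 129 CPM and 61, 47.1 and 43 CPM (log2 fold change -1.26 ± 0.15, adjusted p = 0.00276).

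Other lower genes were picked by their small p, which goes with a small spread within each group. Rspo1, a secreted enhancer of Wnt signalling, had 43.7, 41 and 39.8 CPM in the controls and 18.5, 17.3 and 16.2 CPM in Dicer iKO (log2 fold change -1.26 ± 0.11, adjusted p = 0.0016). Stbd1, a glycogen-binding protein, had 41, 43.2 and 37.3 CPM and 15.4, 17.9 and 16 CPM (log2 fold change -1.30 ± 0.12, adjusted p = 0.00167). Camk2n1, an inhibitor of CaM kinase II, had 118, 119 and 138 CPM and 63.3, 53.7 and 50.8 CPM (log2 fold change -1.16 ± 0.12, adjusted p = 0.00215). These 3 calls held without any 1 library. Chpt1, which makes phosphatidylcholine, had 443, 466 and 469 CPM and 247, 233 and 204 CPM (log2 fold change -1.01 ± 0.11, adjusted p = 0.0024), and missed the fold limit without control 3 or iKO 3 (log2 fold changes of -0.997 to -0.93, adjusted p of 0.00188 to 0.0175).

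The largest decreases were at low levels. Retnla, secreted by alternatively activated macrophages, had 4.73, 6.33 and 4.05 CPM in the controls and 0.266, 0.173 and 0.415 CPM in Dicer iKO (log2 fold change -4.03 ± 0.43, adjusted p = 0.00237). Its direction was thus opposite to that of the macrophage markers called. Ifi202b, one of a family of similar interferon-inducible genes whose reads may be hard to assign, had 5.44, 4.35 and 3.78 CPM in the controls and 0 counts in Dicer iKO, at least 10.2-fold lower against a floor of 3 counts per library. By the study's methods the mouse lines were made by backcrossing. A difference in genetic background between the groups was not tested. Nmb, the neuropeptide neuromedin B, had 8.59, 6.07 and 5.67 CPM and 1.86, 1.55 and 0.968 CPM (log2 fold change -2.20 ± 0.34, adjusted p = 0.00592). These 3 calls held without any 1 library. Inmt, a methyltransferase, had 7.59, 9.50 and 4.86 CPM and 0.665, 0.345 and 1.94 CPM (log2 fold change -2.84 ± 0.53, adjusted p = 0.0113), lost without control 2 (log2 fold change -2.61, adjusted p = 0.0537). Dnah9, an axonemal dynein, Fgfbp1, an FGF carrier, and Rph3a, a synaptic vesicle protein, had log2 fold changes of -2.34, -2.21 and -2.19. Each of them lost its call without at least 1 library, without control 2, control 3, iKO 1, iKO 2 or iKO 3 (log2 fold changes of -2.46 to -1.70, adjusted p of 0.0508 to 0.117).

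The lower and the higher call with the most counts were Sptb and Apod, both chosen after their values were seen. Sptb, a beta spectrin of the membrane skeleton, had 779, 982 and 1299 CPM in the controls and 543, 328 and 354 CPM in Dicer iKO (log2 fold change -1.32 ± 0.25, adjusted p = 0.0121), lost without iKO 2 or iKO 3 (log2 fold changes of -1.22 to -1.17, adjusted p of 0.0633 to 0.0701). Apod, a lipocalin that SCs and fibroblasts secrete, had 6175, 4935 and 2640.5 CPM and 13630, 16548 and 15277 CPM (log2 fold change 1.73 ± 0.32, adjusted p = 0.0113), lost without control 2 or iKO 2 (log2 fold changes of 1.67 to 1.78, adjusted p of 0.0527 to 0.0568).

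Further lists gave 1 call each with all libraries, where 9.01% of all tested genes were called either way. Of 15 tested nodal and axon contact genes 1 was called higher, Kcnj10, a glial potassium channel, with 1.58, 2.64 and 1.22 CPM in the controls and 15, 22.8 and 31.1 CPM in Dicer iKO (log2 fold change 3.65 ± 0.37, adjusted p = 0.00214), and 2 were lower without control 1 and 1 without iKO 1. Nfasc, an adhesion protein of nodes and paranodes, had a log2 fold change of -0.99 (adjusted p = 0.0732). Of 12 tested imprinted growth genes 1 was called lower, the growth factor Igf2, with 12.3, 13.7 and 16.7 CPM and 2.13, 2.93 and 5.81 CPM (log2 fold change -1.97 ± 0.35, adjusted p = 0.0096), lost without iKO 2 (log2 fold change -1.83, adjusted p = 0.0543). Without control 3 the list gave 2 lower calls and 1 higher, and without iKO 1 also 1 higher. Of 16 tested genes of the integrated stress response and serine synthesis 1 was called higher, Sesn2, a sestrin, with 4.15, 4.49 and 2.56 CPM and 7.58, 9.49 and 11.1 CPM (log2 fold change 1.32 ± 0.28, adjusted p = 0.0164), lost without iKO 2 or iKO 3 (log2 fold changes of 1.19 to 1.33, adjusted p of 0.0672 to 0.0802), and 2 were called without control 1. Of 12 immediate early genes Atf3 was the 1 called, and Fos and Egr1 overlapped between the groups. Of 14 tested circadian clock genes 1 was called lower, the output factor Hlf, with 59.7, 46.7 and 27.7 CPM and 26.2, 17.6 and 22.1 CPM (log2 fold change -1.02 ± 0.28, adjusted p = 0.0381), lost without control 1, control 2, iKO 1, iKO 2 or iKO 3 (log2 fold changes of -1.15 to -0.76, adjusted p of 0.0528 to 0.143). Per2, a clock repressor, was 1 of 5 lower by the adjusted p alone, with 50.8, 56 and 67.2 CPM and 37.6, 30.4 and 32.1 CPM (log2 fold change -0.80 ± 0.14, adjusted p = 0.00938).

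The nerves that lack Dgcr8, the partner of Drosha one step before Dicer, have their own controls and allow a test of the difference between the effects. Among 12897 genes tested in both, 1609 (12.5%) were called higher and 891 (6.91%) lower in Dgcr8 iKO. Called higher in both were 845, 89.9% of the 940 of Dicer iKO and 52.5% of the 1609 of Dgcr8 iKO. Called lower in both were 177, 86.3% of the 205 and 19.9% of the 891. The interaction, over 12 libraries and 13552 genes, passed an adjusted p of 0.05 in 1 gene in each direction (0.00738% each), and in 0 of the genes called in Dicer iKO. Without Dicer control 3 it passed in 81 and 320 genes. In the fit of all 12 libraries the unequal numbers of calls are thus not a difference shown gene by gene. That outcome depends on the libraries and on the test used. A p that misses the threshold does not show that the deletions act alike.

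Jun had a log2 fold change of 1.01 in Dicer iKO and of 1.54 in Dgcr8 iKO (interaction adjusted p = 0.333). Gdnf, whose fitted folds rest on a few control counts, had 4.47 and 4.23 (interaction adjusted p = 0.906). Sc5d had -1.40 and -2.55 (interaction adjusted p = 0.186). All 3 genes pointed the same way in both deletions.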

How the data were processed

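Total RNA of 6 sciatic nerves, grouped by sample titles, was sequenced by the authors with a stranded kit after removal of ribosomal RNA. Reads were trimmed (Trimmomatic), aligned to GRCm38 (STAR) and assigned to Ensembl transcripts (RSEM) by the authors, who deposited expected counts, estimates that share ambiguous reads between similar transcripts. These were added up for each gene here and rounded. Of 22880 genes 22647 matched GENCODE M21, the source of positions.

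Genes passing filterByExpr (minimum count 10) were normalized by TMM and tested with the quasi-likelihood test of edgeR 4.0.16 (limma 3.58.1, R 4.3.3) on these 6 libraries, with p-values adjusted by Benjamini and Hochberg over 13045 genes. A call needed a fold of at least 2 and an adjusted p of at most 0.05. SE is the log2 fold change over the root of F. The interaction used 12 libraries. In simulated data for the Dicer comparison 188 of 200 genes changed 4-fold were called among 12653, with 5 false calls, and for the interaction 177 of 200 among 13065, with 4. Depth was 5594859 to 7753153 counts. Tables were made with Python 3.11.15, pandas 2.3.3 and scipy 1.17.1.

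The comparison and gene lists were chosen with earlier results of these data known, and lists are described by counts and medians only. Named by rule were miRNA pathway genes, 8 genes the study names, the 8 largest folds and 5 smallest p-values each way (log2 CPM averaging at least 1, groups apart), up to 4 members of each list by p, and called markers; other genes were chosen after their values were seen. Some genes are not reported here. Alternatives were other normalizations (RLE, upper quartile), filters, protein-coding genes only, DESeq2 1.42.0, the exact test of edgeR, a replicate block, 12 libraries in 1 fit, other thresholds, leaving out single libraries and, chosen after seeing the data, a term for Ddx3y-positive libraries and 3′ UTRs of 1000 to 3000 bases.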

Additional observations from a re-analysis of the deposited data

Results flagged for a closer look

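Groups of 3 are too small for a test of single outlying samples. The interaction between the Dicer and Dgcr8 experiments passed the adjusted p threshold in 2 genes, neither called in Dicer iKO. Plvap, a protein of fenestrated endothelium (GRCm38 chr8:71497765-71511752), had a Dicer effect lower than the Dgcr8 effect by -4.78 on the log2 scale (edgeR interaction, adjusted p = 0.0462). Its levels were 1.40, 1.17 and 0.645 CPM in the Dicer controls, 1.88, 1.25 and 0.862 CPM in Dicer iKO, 0.231, 0.254 and 0.405 CPM in the Dgcr8 controls and 9.79, 14.3 and 9.35 CPM in Dgcr8 iKO, so that all 3 Dgcr8 iKO nerves stood above the other 9. In the Dicer comparison it was too low to test. Per3, a circadian period gene (GRCm38 chr4:151003652-151044665), had a Dicer effect higher than the Dgcr8 effect by 1.27 (adjusted p = 0.0495), with a log2 fold change of -0.34 in Dicer iKO and -1.62 in Dgcr8 iKO. Per3 had 115, 122 and 135 CPM in the Dicer controls and 105, 106 and 100 CPM in Dicer iKO, against 88.7, 106 and 82.7 CPM and 29.6, 35.3 and 33.2 CPM in the Dgcr8 experiment. Both p-values lie just under the threshold, and the CPM of Plvap and Per3 are counts over library totals, without normalization.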

How the results depend on the processing

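No called gene changed sign under any alternative. Calls were 961 higher and 214 lower; the replicate block gave 548 and 92, an adjusted p of at most 0.01 gave 522 and 58, and no fold limit 1605 and 1159. Leaving out 1 library gave 515 to 1093 higher and 57 to 375 lower. RLE and upper quartile normalization, other filters, DESeq2 (1002 and 256), the exact test (1052 and 285), 12 libraries in 1 fit (1115 and 281) and the Ddx3y term (813 and 174) stayed within 1.5 times. Replicate numbers did not pair the samples (correlations of deviations -0.204, 0.0746 and -0.107), so that the block is a shared number only; under it cholesterol synthesis kept 1 of 12 calls and macrophages 6 of 12. The interaction gave 1 gene each way, 65 and 170 by DESeq2, 3 and 17 without a filter, 0 higher with RLE, 0 and 0 with the block or with at least 10 counts in every library, and 0 to 81 and 0 to 320 without 1 library. The let-7f difference of medians, 0.0506, was 0.0295 for matches to bases 2 to 8 and 0.0863 in UTRs of 1000 to 3000 bases, where that for any match was 0.0277 in place of -0.0247. Of 98 named called genes 64 were called under every alternative. Of genes not called, the log2 fold change of Tnrc6c changed sign, at -0.110 with the Ddx3y term and -0.0758 (without control 1) to 0.148 (without iKO 1) with 1 library left out, among them -0.0158 (without control 2), -0.0192 (without iKO 2) and -0.0565 (without iKO 3). The log2 fold change of Adar did so at -0.0365 with the Ddx3y term and at -0.00374 (without control 2), with up to 0.183 without control 3. The causes were not tested. With 3 nerves per group, calls near the fold limit and most lower calls rest on few libraries, and levels under about 0.5 CPM are within the floor.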

Other observations

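The genes given here were chosen after their values were seen. Cplx1, a SNARE regulator, had 6.59, 5.94 and 8.64 CPM in the controls and 1.60, 1.21 and 2.63 CPM in Dicer iKO (log2 fold change -1.93 ± 0.34, adjusted p = 0.00919). Stmn3, an axonal tubulin regulator, had 28.9, 20.6 and 23.2 CPM and 9.57, 6.73 and 4.57 CPM (log2 fold change -1.79 ± 0.27, adjusted p = 0.00564). Both calls held without any 1 library. The active zone genes Rims1, Rims2, Pclo and Rimbp2 had log2 fold changes of -1.21, -1.48, -1.18 and -1.59 and lost their calls without control 1, control 2, iKO 2 or iKO 3 (log2 fold changes of -1.58 to -0.95, adjusted p of 0.0506 to 0.139). The neurofilament genes Nefh and Nefm were lower in the same comparison.

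Hexa, a hexosaminidase subunit, had 123, 109.9 and 93.1 CPM and 266, 343 and 355 CPM (log2 fold change 1.56 ± 0.16, adjusted p = 0.00205). Gla and Glb1, galactosidases of lipid breakdown, and progranulin (Grn) had log2 fold changes of 1.88, 1.21 and 1.82 (adjusted p = 0.00237, 0.00167 and 0.00288). Gdf15, a stress-induced cytokine, reached 4.12, 7.42 and 8.58 CPM from 0.430, 0.132 and 0 CPM (log2 fold change 5.07 ± 0.66, adjusted p = 0.00372). This call held without any 1 library. Lars2, a mitochondrial leucyl-tRNA synthetase, had 35.5, 23.8 and 48.6 CPM and 371, 281 and 753 CPM (log2 fold change 3.70 ± 0.43, adjusted p = 0.00273). The mutants spread widely, and the counts do not show which part of Lars2 the reads cover. Whether they come from its mRNA was not tested.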
